A study of Mus musculus with 12 samples.

Results

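The common gamma chain (Il2rg), the receptor chains that pair with it (Il2ra, Il2rb, Il7r, Il4ra and Il15ra), the ligand Il15, GM-CSF (Csf2) with its receptor alpha chain (Csf2ra), and the ligand-binding chain of the IL-10 receptor (Il10ra) were followed across 12 libraries of tumor RNA. These 10 genes were chosen by name from a table of 55450 genes, and all 10 had enough counts to be tested, among 20417 tested genes. The tumors were subcutaneous TC2R tumors in C57BL/6 males that were 8 to 10 weeks old at implantation. TC2R is the TRAMP-C2 prostate adenocarcinoma line, to which an activated H-ras was added with a lentivirus, so every tumor grew from 1 engineered line.

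The groups were IL-18, IL-27, 27→18, 27pepL, 27pepL→18 and pMCS, with 2 libraries each. On day 4 a plasmid was delivered into muscle by ultrasound with a polymer and microbubbles. The plasmid encoded IL-27 with a non-specific C-terminal peptide in IL-27 and 27→18, and IL-27 with pepL, a peptide that binds IL-6Rα, in 27pepL and 27pepL→18. The plasmid was the empty vector in pMCS. The plasmid of the IL-18 group is not named in the labels. IL-18 protein was injected into the tumors of IL-18, 27→18 and 27pepL→18 on day 10, and all tumors were collected on day 26. Each library was pooled from 4 to 6 tumors, and whether paired libraries hold different animals is not stated. The p-values therefore reflect only the spread from library to library, and that spread may be technical.

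The common gamma chain is a signaling subunit shared by the receptors for IL-2, IL-4, IL-7, IL-9, IL-15 and IL-21. It is found on T cells, natural killer (NK) cells and many other leukocytes, and it carries signals through JAK3 to STAT proteins, mainly STAT5 and, for IL-4, STAT6. GM-CSF acts on myeloid cells through its own alpha chain and a beta chain shared with the receptors for IL-3 and IL-5. In a tumor these receptors sit mostly on infiltrating leukocytes, although IL-4 receptor alpha and the IL-15 pair are also made by stromal and epithelial cells.

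The libraries held between 49844915 and 76620862 counts. Replicates resembled each other least in IL-27, with a correlation of 0.873 in log2 CPM, and most in IL-18, with 0.961. CPM is the count of a gene scaled to a fixed library total, adjusted here by TMM factors unless called raw, and values are given as replicate 1 and replicate 2. IL-27 replicate 1 stood apart in other genes as well. Its 5 pan-leukocyte markers summed to 1061 raw CPM, against 182 to 378 in the other 11 libraries, and in bulk RNA fewer cells of a type and less RNA per cell cannot be told apart. Its 5 adipocyte markers summed to 7011 raw CPM, against 2.08 to 667. The 5 hepatocyte markers summed to 1.59 to 4.88 raw CPM in the 6 libraries of 27→18, 27pepL and 27pepL→18, against 190 to 293 in the 6 libraries of IL-18, IL-27 and pMCS, so whatever sets those libraries apart cannot be told apart from the groups. Krt8, a keratin of luminal epithelium, was present in all 12 libraries.

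Among the 10 genes, Il2rg had the highest level per length, with a median over the 12 libraries of 9.18 CPM per kilobase of exon. Il4ra followed at 5.78, Csf2ra at 2.74, Il10ra at 2.37 and Il2rb at 1.78 CPM per kilobase. Il15, Csf2 and Il15ra lay at 1.03, 0.992 and 0.818, and Il7r and Il2ra were lowest, at 0.345 and 0.293 CPM per kilobase.

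The upstream sequences of 2 genes are shown because the results turn on them: Il2rg, which every receptor of the gamma chain family needs, and Csf2ra, which had the smallest p-value in the comparison of 27pepL with IL-27. Each run is the 250 bases upstream of the gene's start in RefSeq, on the GRCm38.p6 build, on the minus strand and written 5′ to 3′. Capitals mark TGTGGT, the core recognized by RUNX factors, in Il2rg, and GAGGAA, the core recognized by the myeloid factor PU.1, in Csf2ra.
Il2rg, chrX:101268256-101268505: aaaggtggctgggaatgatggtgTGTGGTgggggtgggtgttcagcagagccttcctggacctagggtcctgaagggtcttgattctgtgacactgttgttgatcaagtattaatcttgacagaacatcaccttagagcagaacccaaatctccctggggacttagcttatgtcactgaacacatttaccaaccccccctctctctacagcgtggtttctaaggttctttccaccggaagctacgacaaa
Csf2ra, chr19:61228419-61228668: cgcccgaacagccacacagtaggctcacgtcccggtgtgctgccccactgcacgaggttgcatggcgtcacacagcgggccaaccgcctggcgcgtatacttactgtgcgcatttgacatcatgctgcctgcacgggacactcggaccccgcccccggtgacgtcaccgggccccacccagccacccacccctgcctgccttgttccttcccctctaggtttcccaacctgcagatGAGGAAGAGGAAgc

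The Il2rg match began 227 bases before the start. The 2 Csf2ra matches began 14 and 8 bases before it and lay side by side without overlap, and in GENCODE M21 the gene's first bases overlap the end of this window. RefSeq gave upstream windows for 7 of the 10 genes, 8 windows in all, and 3 motifs were searched on both strands: the RUNX core TGTGGT, the PU.1 core GAGGAA and the STAT motif TTCNNNGAA. Of all 32851 RefSeq windows of this length, 14% hold the RUNX core, 23.3% the PU.1 core and 7.02% the STAT motif. The other matches were a pair of PU.1 cores, on the opposite strand, in 1 of the Il15ra windows and a STAT motif in the Il7r window, beginning 142 bases before a RefSeq start that lies inside the gene as GENCODE M21 places it. A match describes the letters in the window and says nothing of binding in these tumors.

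**Figure D1:**
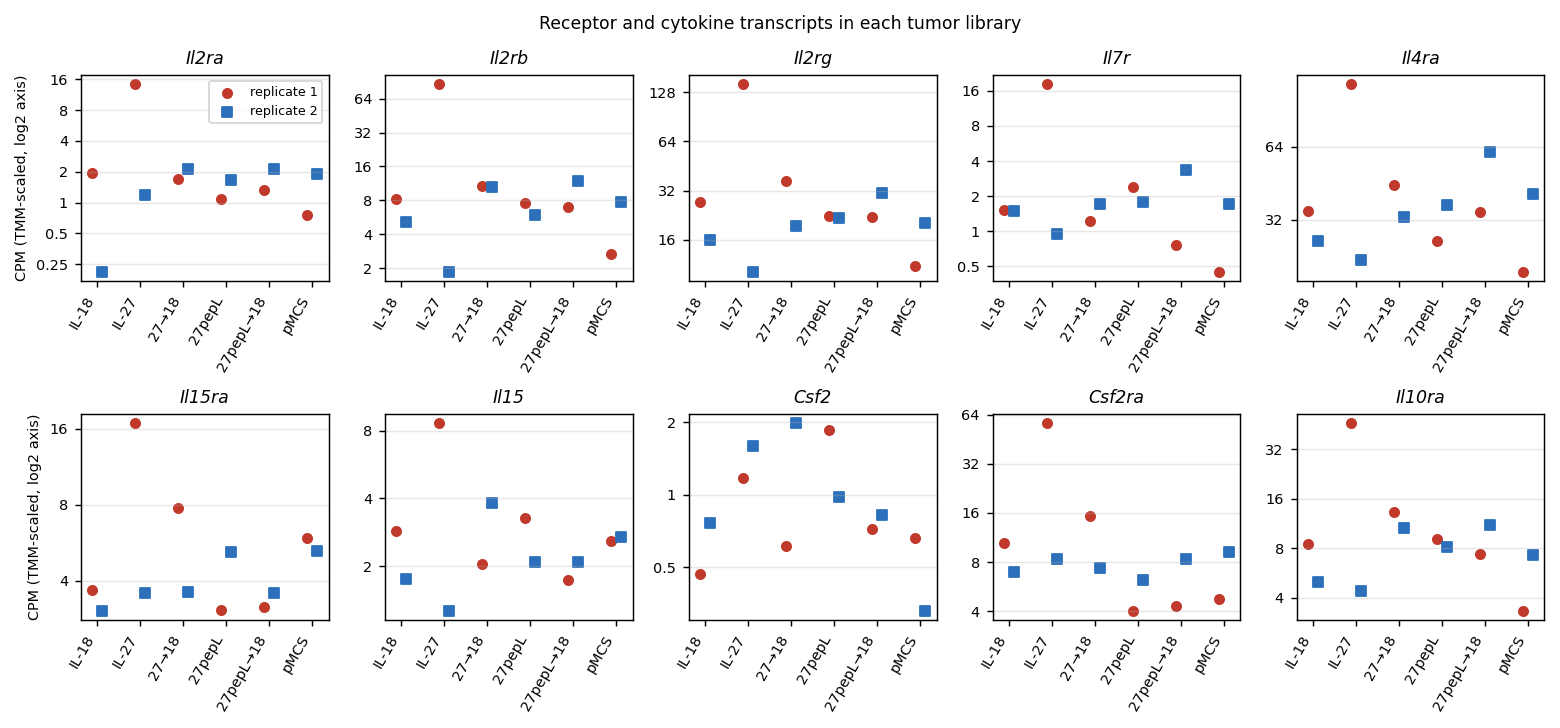
Level of each gene in every library, as TMM-scaled CPM on a log2 axis, with replicate 1 as circles and replicate 2 as squares and pMCS at the right. IL-27 replicate 1 is the highest of the 12 libraries in 9 of the 10 panels, the exception being Csf2.

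Il2rg (X:101264378-101268255, minus strand) read 27.3 and 15.96 CPM in IL-18, 144 and 10.2 in IL-27, 36.7 and 19.3 in 27→18, 22.2 and 21.7 in 27pepL, and 22.2 and 30.9 in 27pepL→18, against 11.05 and 20.3 CPM in the pMCS libraries. IL-27 therefore held both the highest and the lowest of the 12 libraries. The libraries of 27pepL and of 27pepL→18 all lay above both pMCS libraries, while those of IL-18, IL-27 and 27→18 overlapped with pMCS.

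Il2rb (15:78479256-78495271, minus strand) encodes the beta chain shared by the IL-2 and IL-15 receptors and is high on NK cells and memory T cells. It read 8.23 and 5.09 CPM in IL-18, 86.8 and 1.86 in IL-27, 10.8 and 10.5 in 27→18, 7.59 and 5.92 in 27pepL, and 7.005 and 11.998 in 27pepL→18, against 2.65 and 7.69 CPM in the pMCS libraries. As for Il2rg, both extremes came from IL-27. The 27→18 libraries lay above both pMCS libraries and nearly coincided with each other.

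Il2ra (2:11642807-11693193, plus strand) encodes CD25, which raises the affinity for IL-2 and marks regulatory and activated T cells. Its level was 1.94 and 0.212 CPM in IL-18, 14.4 and 1.19 in IL-27, 1.68 and 2.12 in 27→18, 1.08 and 1.66 in 27pepL, and 1.33 and 2.11 in 27pepL→18, against 0.757 and 1.92 CPM in the pMCS libraries. Every treated group overlapped with pMCS, and IL-18 replicate 2 was the lowest library, with 17 counts. The 3 regulatory T cell markers summed to 0.655 raw CPM in that library, the lowest sum of all, and to 25.2 raw CPM in IL-27 replicate 1, the highest.

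Il7r (15:9505788-9530176, minus strand) encodes the IL-7 receptor alpha chain, which naive and memory T cells need for survival. It read 1.51 and 1.497 CPM in IL-18, 18.4 and 0.947 in IL-27, 1.23 and 1.71 in 27→18, 2.42 and 1.78 in 27pepL, and 0.761 and 3.36 in 27pepL→18, against 0.449 and 1.73 CPM in the pMCS libraries. The 27pepL libraries were above both pMCS libraries, by little over the higher one. The other treated groups overlapped with pMCS.

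Il4ra (7:125552120-125579474, plus strand) encodes the chain that binds IL-4 and, with Il13ra1, also IL-13. It read 35.0 and 26.2 CPM in IL-18, 116 and 21.8 in IL-27, 44.8 and 32.8 in 27→18, 26.3 and 36.9 in 27pepL, and 34.5 and 60.8 in 27pepL→18, against 19.6 and 40.9 CPM in the pMCS libraries. No treated group separated from pMCS. After IL-27 replicate 1, the highest library was 27pepL→18 replicate 2, which also had the highest pan-leukocyte and macrophage marker sums among the other 11 libraries.

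Il15ra (2:11705290-11734317, plus strand) encodes the chain that presents IL-15 from one cell to its neighbor. Its level was 3.68 and 3.03 CPM in IL-18, 16.8 and 3.56 in IL-27, 7.78 and 3.60 in 27→18, 3.05 and 5.197 in 27pepL, and 3.14 and 3.57 in 27pepL→18, against 5.91 and 5.22 CPM in the pMCS libraries. Here pMCS was on the high side: 8 of the 10 treated libraries were below both pMCS libraries, the exceptions being replicate 1 of IL-27 and of 27→18, although 27pepL replicate 2 nearly met the lower pMCS library. In 7.76% of all tested genes, 8 or more treated libraries were below both pMCS libraries.

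Il15 (8:82331632-82403222, minus strand), the ligand of that pair and a survival factor of NK cells and memory CD8 T cells, read 2.85 and 1.75 CPM in IL-18, 8.63 and 1.26 in IL-27, 2.03 and 3.83 in 27→18, 3.27 and 2.09 in 27pepL, and 1.74 and 2.09 in 27pepL→18, against 2.58 and 2.68 CPM in the pMCS libraries. The pMCS libraries were close together, and 6 treated libraries were below both and 4 above both. The 27pepL→18 libraries were both lower than pMCS, and the other groups had a library on each side.

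Csf2 (11:54247271-54249667, minus strand) encodes GM-CSF, which drives the growth and activation of macrophages, granulocytes and dendritic cells. It rested on few reads, 19 to 128 counts per library. It read 0.470 and 0.761 CPM in IL-18, 1.18 and 1.60 in IL-27, 0.611 and 1.98 in 27→18, 1.85 and 0.977 in 27pepL, and 0.722 and 0.826 in 27pepL→18, against 0.662 and 0.328 CPM in the pMCS libraries. Csf2 was the exception among the 10 genes in that its IL-27 libraries were close to each other. As for Il10ra, 8 of the 10 treated libraries were above both pMCS libraries. In 7.55% of all tested genes, 8 or more treated libraries were above both pMCS libraries.

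Csf2ra (19:61223957-61228429, minus strand), the GM-CSF receptor alpha chain of myeloid cells, read 10.4 and 6.96 CPM in IL-18, 56.6 and 8.37 in IL-27, 15.2 and 7.39 in 27→18, 4.02 and 6.21 in 27pepL, and 4.29 and 8.38 in 27pepL→18, against 4.73 and 9.18 CPM in the pMCS libraries. Every treated group overlapped with pMCS. The 27pepL libraries were lower than both IL-27 libraries, the lower of which was close to the higher pMCS library.

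Il10ra (9:45253837-45269149, minus strand), the chain through which IL-10 restrains macrophages and dendritic cells, read 8.49 and 4.99 CPM in IL-18, 46.0 and 4.38 in IL-27, 13.3 and 10.6 in 27→18, 9.10 and 8.10 in 27pepL, and 7.41 and 11.1 in 27pepL→18, against 3.34 and 7.28 CPM in the pMCS libraries. Both libraries of 27→18, 27pepL and 27pepL→18 were above both pMCS libraries. With 1 library of IL-18 and 1 of IL-27, 8 of the 10 treated libraries were above both pMCS libraries. In 7.55% of all tested genes, 8 or more were.

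Ordered by group mean, IL-27 came first for 9 of the 10 genes and 27pepL for Csf2. Neighbors in these orders overlapped throughout, except for Il15ra, where both pMCS libraries were above both 27pepL libraries. Because IL-27 replicate 1 sets the IL-27 mean, the first place of IL-27 rests on that library for the 9 genes.

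IL-27 against pMCS asks what the untargeted cytokine did on its own. All 10 genes had positive log2 fold changes, with a median of 2.23, beside 0.00 over all tested genes. By edgeR's quasi-likelihood test 0 of the 10 genes passed an adjusted p of 0.05, as did 0.00% of all tested genes in either direction. Il2rb, Il2rg, Il7r, Csf2ra and Il10ra had an unadjusted p under 0.05 with a log2 fold change beyond 1, the threshold of the study's methods, 5 of 10 beside 3.44% of all tested genes in this direction. The unadjusted p alone was under 0.05 for 3.64% of all tested genes, higher in IL-27, and 0.921%, lower. DESeq2 and the exact test also gave 0 at an adjusted p of 0.05, beside 0.157% and 0.00% of all tested genes. At an unadjusted p under 0.05 they gave 6 each, beside 5.97% and 4.25% higher in IL-27. A fit to the IL-27 and pMCS libraries alone gave 0 at the unadjusted threshold. In that fit 0.675% of 18508 genes were higher at an unadjusted p under 0.05 in edgeR. A fit without the filter on low counts gave 5 at an adjusted p of 0.05 in edgeR, beside 2.63% of 31054 genes.

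The log2 fold change in IL-27 was 3.14 for Il7r (standard error 1.24), 3.10 for Il2rb (1.26) and 2.30 for Il2rg (0.936). It was 2.24 for Il10ra (0.878) and 2.22 for Csf2ra (0.823). Il2ra had 2.54 (1.20), Csf2 1.49 (0.741), Il4ra 1.19 (0.682), Il15 0.91 (0.775) and Il15ra 0.87 (0.677). The adjusted p from edgeR was 1 for all 10 genes. Csf2 was the only one of the 10 whose IL-27 libraries both lay above pMCS, a separation seen in 10.7% of all tested genes, and 0 of 10 were lower without overlap, beside 11.6%.

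**Figure D2:**
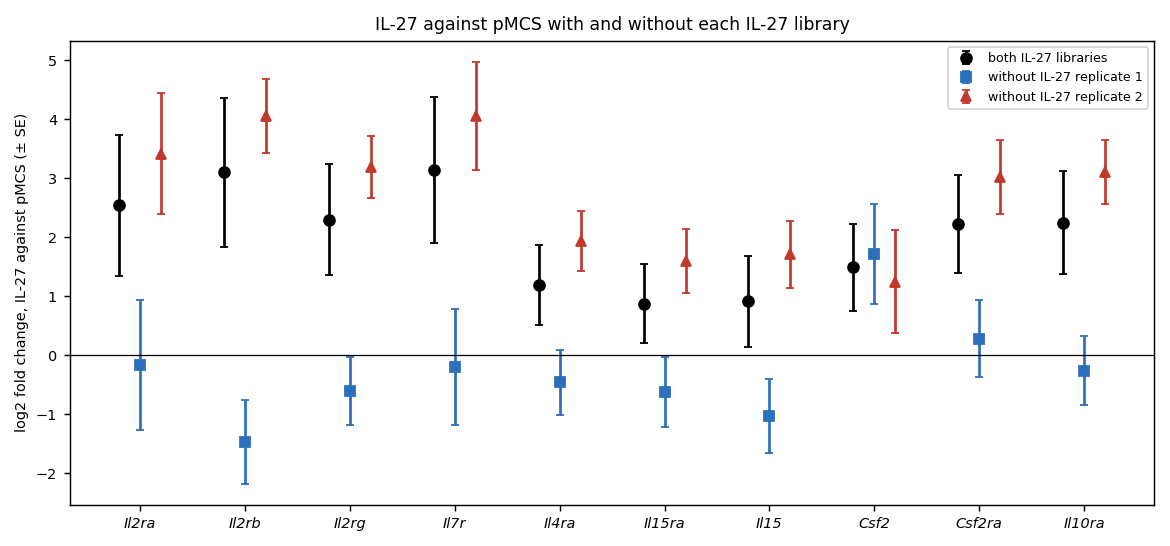
Log2 fold change of each gene in IL-27 against pMCS, with its standard error, from edgeR with both IL-27 libraries (circles), without IL-27 replicate 1 (squares) and without IL-27 replicate 2 (triangles). Without replicate 1 the values of 8 genes are below 0, and without replicate 2 all 10 are above 1.

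Leaving out 1 of the IL-27 libraries changed the result in opposite directions. Without replicate 1 the log2 fold change was negative for 8 of the 10 genes, with a median of -0.36, and 0 genes had an unadjusted p under 0.05 in edgeR. Il2rb then stood at -1.47 (standard error 0.71), while Csf2 at 1.72 and Csf2ra at 0.28 kept a positive sign. Without replicate 2 the median was 3.06, 9 genes had an unadjusted p under 0.05, and Il2rb, Il2rg, Il10ra and Csf2ra passed an adjusted p of 0.05 from edgeR, at 0.0268, 0.0268, 0.0299 and 0.0496. Calls rose over all genes as well in that fit, with 1.91% of 22654 genes past the adjusted threshold, and 9.09% higher at an unadjusted p under 0.05. Without pMCS replicate 1 the median was 1.86, against 2.23 with all libraries, and Il2rb stood at 2.52 (standard error 1.62). The unadjusted calls depended on pMCS replicate 1 too. That library was the lowest of the 12 for Il7r, Il4ra and Il10ra, 3 of 10 beside 9.25% of all tested genes.

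The single library can be described against the other 11. IL-27 replicate 1 was the highest of the 12 for 9 of the 10 genes, beside 23.7% of all tested genes. Its ratio to the median of the other 11 libraries ranged from 1.55 for Csf2 to 12.2 for Il7r, with a median of 6.16 over the 10 genes and 0.990 over all genes, of which 7.05% reached 6.16 or more. IL-27 replicate 2 was the lowest of the 12 for Il2rb, Il2rg and Il15, 3 of 10 beside 5.11% of all tested genes.

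Markers of several cell types moved with these receptors in IL-27 replicate 1. All 7 T cell markers were highest there, with a sum of 104 raw CPM against 5.59 to 18.8 in the other 11 libraries. All 7 NK cell markers were highest there (174 against 9.21 to 46.9), as were all 7 macrophage and monocyte markers (1154 against 120 to 488), all 6 dendritic cell markers (137 against 8.85 to 24.2) and all 4 mast cell markers (81.5 against 2.41 to 21.3). All 3 endothelial markers were highest there too (250 against 48.2 to 154), as were all 5 adipocyte markers, 3 of 4 B cell markers, 3 of 5 neutrophil markers and 2 of 5 fibroblast markers, whose sum was 6358 raw CPM against 1313 to 4410 in the other 11 libraries. No defining marker of these lists was at 0 in every library. The part of any of these cells in the receptor levels was not tested.

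Setting each gene against the mean log2 CPM of the pan-leukocyte markers of the same library gives its level relative to leukocytes. On the log2 CPM scale, IL-27 replicate 1 exceeded the median of the other 11 libraries by 3.51 for Il2rb, 3.58 for Il7r, 3.09 for Il2ra and 2.73 for Il2rg. Relative to the leukocyte markers these differences were 1.24, 1.23, 1.09 and 0.55. The library was still the highest for Il2rb, Il7r and Il2ra.

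For Csf2ra and Il10ra the differences were 2.93 and 2.50 on the log2 CPM scale and 0.54 and 0.39 relative to the leukocyte markers. For Il15ra and Il15 they were 2.22 and 2.03, and -0.18 and -0.33 after subtraction. After subtraction Il4ra stood at -0.45 and Csf2 at -1.82, and both were lowest of the 12 libraries on this scale. Against the median of the other 11 libraries the difference thus stayed positive for 6 genes, Csf2ra and Il10ra included, and was negative for Il4ra, Il15, Il15ra and Csf2. With the leukocyte marker level as a term in the model, the log2 fold changes of IL-27 against pMCS were negative for all but Csf2 and Csf2ra. In that fit 0 of these genes had an unadjusted p under 0.05 in edgeR, beside 0.901% higher and 2.46% lower among all tested genes. The marker level was 7.534 in IL-27 replicate 1 and 4.911 to 5.885 in the other 11 libraries. The term therefore largely sets that library apart, and this fit is not a check separate from leaving it out.

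**Figure D3:**
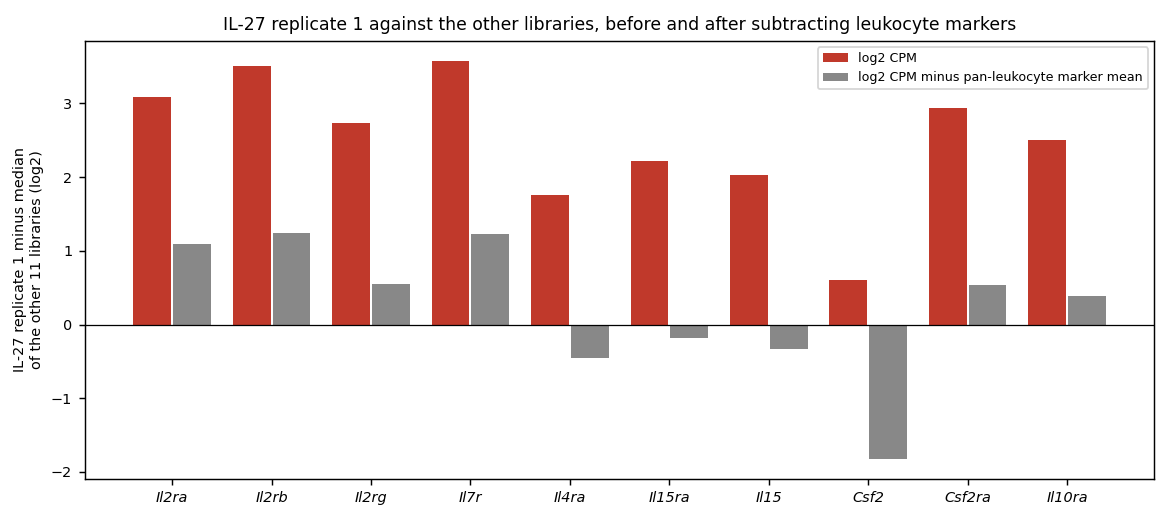
Difference between IL-27 replicate 1 and the median of the other 11 libraries for each gene, on the log2 CPM scale (red) and after subtracting the mean log2 CPM of the pan-leukocyte markers of each library (gray). Il2rb, Il7r and Il2ra stay above 1 after subtraction, and Il4ra, Il15ra, Il15 and Csf2 are below 0.

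IL-18, 27→18, 27pepL and 27pepL→18 were each compared with pMCS to ask how the cytokine given alone, in sequence or in targeted form differed from the empty vector. All the comparisons with pMCS share its 2 libraries. In each of these 4 comparisons, 0 of the 10 genes passed an adjusted p of 0.05 in edgeR and 0 had an unadjusted p under 0.05, also by DESeq2 and the exact test. At the adjusted threshold 0.00% of all tested genes were higher in each of them, and 0.00% were lower in IL-18, 0.235% in 27→18, 0.255% in 27pepL and 0.230% in 27pepL→18. The share of all tested genes with an unadjusted p under 0.05 was 1.07% higher and 1.75% lower in IL-18, 0.754% and 1.64% in 27→18, 1.09% and 2.68% in 27pepL, and 0.999% and 2.29% in 27pepL→18.

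The median log2 fold change of the 10 genes was 0.32 in IL-18, 0.60 in 27→18, 0.22 in 27pepL and 0.65 in 27pepL→18, beside -0.02, 0.00, -0.03 and -0.03 over all tested genes. In 27→18 all 10 were positive, from 0.03 for Il15ra to 1.39 for Csf2. In IL-18 7 were positive, with Il15ra lowest at -0.73. The standard errors of single genes lay near 0.7 to 1.2, as large as most of these differences.

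**Figure D4:**
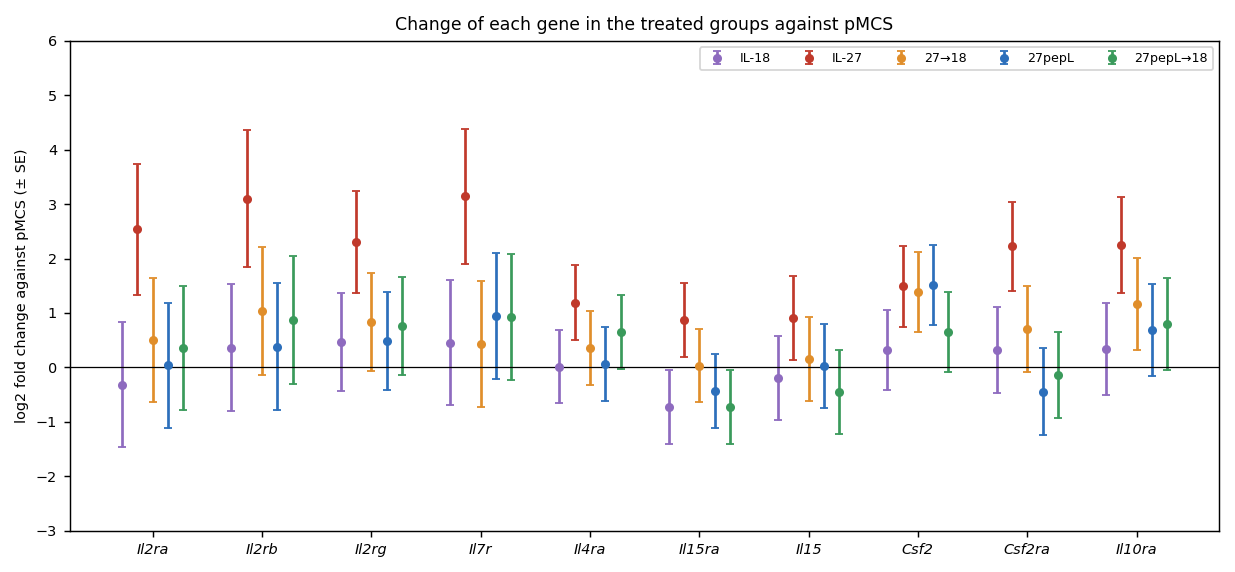
Log2 fold change of each gene against pMCS with its standard error, from edgeR, for IL-18, IL-27, 27→18, 27pepL and 27pepL→18 from left to right. IL-27 has the highest value for every gene except Csf2, where 27pepL, at 1.51, is above IL-27, at 1.49, and none of the 10 genes passes an adjusted p of 0.05 in any of the 5 comparisons.

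Csf2 had the smallest p of the 10 genes in 27pepL, with a log2 fold change of 1.51 (standard error 0.741), and in 27→18, with 1.39 (0.739). It was 0.65 (0.732) in 27pepL→18 and 0.32 (0.731) in IL-18. The adjusted p from edgeR was 1 in each. The 27→18 libraries were far apart, and the lower of them was below the higher pMCS library. At 28 and 19 counts in pMCS the precision of this gene is limited by counting as well.

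Groups that did not overlap with pMCS were counted next. In 27pepL, Il2rg, Il7r, Csf2 and Il10ra were higher in both libraries, 4 of 10 beside 13.5% of all tested genes, and Il15ra was lower, 1 of 10 beside 14.6%. In 27pepL→18, Il2rg, Csf2 and Il10ra were higher, 3 of 10 beside 14.1%, and Il15ra and Il15 were lower, 2 of 10 beside 15.0%. In 27→18, Il2rb and Il10ra were higher, 2 of 10 beside 12.3%, and 0 were lower, beside 11.5%.

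In IL-18, 0 of 10 were higher, beside 19.3%, and Il15ra was lower, beside 19.4%. Il10ra was thus higher than pMCS in all 3 of the groups that received 27pepL or a cytokine sequence. It was singled out after its values were seen. The 3 comparisons share the pMCS libraries, and the share of all genes higher in all 3 was not counted. The log2 fold change of Il10ra was 1.17 in 27→18 (standard error 0.851), 0.70 in 27pepL (0.845) and 0.80 in 27pepL→18 (0.846). Il2rg had 0.48 in 27pepL (0.896) and 0.76 in 27pepL→18 (0.899), and Il2rb 1.04 in 27→18 (1.18). Il15ra was -0.73 in IL-18 (0.677), -0.43 in 27pepL (0.674) and -0.73 in 27pepL→18 (0.677). None of these passed the test. These narrow separations ran beside other differences.

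The NK cell marker sum was 21.3 and 24.3 raw CPM in IL-18, 27.8 and 37.7 in 27→18, 39.0 and 29.8 in 27pepL and 25.6 and 46.9 in 27pepL→18, against 9.21 and 15.8 raw CPM in the pMCS libraries. The pan-leukocyte sum was above both pMCS libraries in 27pepL and 27pepL→18. The groups 27→18, 27pepL and 27pepL→18 are also those with hepatocyte markers near 0. The part of any of these in Il10ra, Il2rg and Il2rb was not tested.

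27pepL against IL-27 asks what the targeting peptide changed. Csf2ra was lower in 27pepL, at 4.02 and 6.21 CPM, against 56.6 and 8.37 in IL-27, with a log2 fold change of -2.67 (standard error 0.837, adjusted p = 0.69 from edgeR). It was the only one of the 10 past the same unadjusted threshold with its fold change, in a direction where 4.45% of all tested genes passed. It was also the only one whose 4 libraries did not overlap, beside 13.6% lower and 10.9% higher among all tested genes. At an adjusted p of 0.05 edgeR gave 0 of the 10, beside 0.00% higher and 0.245% lower among all tested genes. DESeq2 gave 5 genes at an unadjusted p under 0.05 and an adjusted p of 0.048 for Csf2ra, and the exact test gave 3 and 0. These unadjusted counts are given without a share of all genes and are not read as results about the 10 genes. At an adjusted p of 0.05 DESeq2 called 336 of all 20417 tested genes and the exact test 186. The median over the 10 genes was -1.68, beside -0.09 over all tested genes, and Il2rb stood at -2.71 (1.24).

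Without IL-27 replicate 1 the Csf2ra log2 fold change was -0.71 (standard error 0.65), and 8 of the 10 genes were positive, with a median of 0.75. Il2rb was then higher in 27pepL, at 1.86 (0.725, adjusted p = 1 from edgeR), and IL-27 replicate 2 was the lowest of all 12 libraries for it. Without IL-27 replicate 2, Il2rb, Csf2ra and Il2rg passed an adjusted p of 0.05 from edgeR, at 0.0271, 0.0347 and 0.0389, all lower in 27pepL, beside 1.91% of the 22654 genes of that fit. Csf2ra kept a negative sign without either IL-27 library. The hepatocyte marker split runs along this comparison, and its part in Csf2ra was not tested.

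27→18 against IL-27 and 27pepL→18 against 27pepL ask what IL-18 added after either plasmid. The hepatocyte marker split runs along the first comparison and not along the second, and its part was not tested. In 27→18 against IL-27, 0 of the 10 genes had an unadjusted p under 0.05 in edgeR, beside 0.754% higher and 3.03% lower among all tested genes. The exact test gave 1 and DESeq2 2, counts given without a share of all genes and not read as results about the 10 genes. At an adjusted p of 0.05 edgeR gave 0 of the 10, beside 0.00% higher and 0.245% lower, and 0 were without overlap, beside 9.48% higher and 9.81% lower. All 10 log2 fold changes were negative, with a median of -1.27. The smallest p was that of Il7r, at 1.23 and 1.71 CPM in 27→18, against 18.4 and 0.947 in IL-27, with -2.71 (standard error 1.21, adjusted p = 1 from edgeR). Without IL-27 replicate 1, 9 of the 10 were positive with a median of 0.74, and Il2rb stood at 2.50 (0.751, adjusted p = 0.782 from edgeR). Il2rb, Il2rg and Il10ra then had an unadjusted p under 0.05 and were higher in 27→18, beside 444 of 22152 genes of that fit. Without IL-27 replicate 2, 9 of the 10 had an unadjusted p under 0.05 and were lower in 27→18, and 0 passed an adjusted p of 0.05 in edgeR, beside 9.12% and 0.931% of the 22654 genes of that fit.

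In 27pepL→18 against 27pepL, 0 genes had an adjusted p under 0.05, beside 0.00% of all tested genes, and 0 had an unadjusted p under 0.05 in edgeR, DESeq2 or the exact test, beside 0.617% higher and 0.529% lower among all tested genes. The median was 0.19. Csf2 was the only one of the 10 whose libraries did not overlap, at 0.722 and 0.826 CPM in 27pepL→18, against 1.85 and 0.977 in 27pepL, with a log2 fold change of -0.87 (standard error 0.724). Among all tested genes 9.77% were lower and 10.5% higher without overlap.

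The effect of IL-18 after IL-27 was compared with its effect after pMCS in 1 model, and likewise after 27pepL. This takes the IL-18 group as pMCS plasmid followed by IL-18, as the treatments listed in the study's methods imply, although the labels do not state it. After IL-27 the 10 differences of log2 fold changes were all negative, with a median of -1.57. After 27pepL the median was -0.10. The first median rests on IL-27 replicate 1: without that library it was 0.98. With the leukocyte marker level in the model, a term that largely marks the same library, it was 1.11. The hepatocyte marker split enters the contrast after IL-27 and cancels in that after 27pepL, and its part was not tested. In both contrasts over all libraries, 0 genes had an unadjusted p under 0.05 in edgeR. Among all tested genes 1.49% were higher and 2.25% lower after IL-27, and 1.60% and 0.774% after 27pepL. DESeq2 gave 1 gene at an unadjusted p under 0.05 after IL-27, a count given without a share of all genes. At an adjusted p of 0.05 both gave 0 of the 10 in edgeR, beside 0.147% of all tested genes, all lower, after IL-27 and 0.00% after 27pepL. A test for any difference among the 6 groups gave 1 gene at an unadjusted p under 0.05, Csf2ra (adjusted p = 1 from edgeR), beside 3.36% of all tested genes. At an adjusted p of 0.05 it gave 0 of the 10, beside 0.269%.

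Of 33 ligands, other receptor chains and downstream genes of these pathways, 28 had enough counts to be tested. The genes left out were Il9 and Il3, at 0 counts in every library, Il13, at 0 in 9 libraries, Il21, at 0 in 10, and Il5, at 0 in 5. The ligand Il2 ranged from 0 to 182 counts per library and was at 0 in 4 treated libraries and in pMCS replicate 1. In each comparison, 0 of the 28 passed an adjusted p of 0.05 in edgeR. At the unadjusted threshold with the fold change, 3 of 28 were higher in IL-27 against pMCS, beside 3.44% of all tested genes: Csf2rb2, Il10 and Il13ra1.

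Csf2rb2, in mouse the IL-3-specific copy of the shared beta chain, read 47.5 and 3.51 CPM in the IL-27 libraries, against 3.43 and 5.86 CPM in those of pMCS, the same split of the IL-27 libraries as in Csf2ra. Csf2rb2 and Csf2rb are near-identical genes, and reads may be divided between them in an uncertain way. Il10, the ligand of Il10ra, read 2.997 and 0.984 CPM in the IL-27 libraries, against 0.189 and 0.657 CPM in those of pMCS. Here both IL-27 libraries were higher.

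Il13ra1, which pairs with Il4ra in the type II IL-4 receptor, was above both pMCS libraries in all 10 treated libraries, where Il4ra was in 3. It was singled out after its values were seen, and 0.999% of all tested genes lay above pMCS in all 10. It read 43.6 and 40.9 CPM in IL-18, 77.2 and 38.2 in IL-27, 31.0 and 52.3 in 27→18, 56.4 and 48.0 in 27pepL, and 47.0 and 59.0 in 27pepL→18, against 23.9 and 30.2 CPM in the pMCS libraries. The log2 fold change was 1.09 in IL-27 (standard error 0.385), 0.95 in 27pepL (0.384) and 0.97 in 27pepL→18 (0.384), with an adjusted p of 1 from edgeR in each.

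In 27pepL against IL-27, Csf2rb2, the kinase Jak3 and the feedback inhibitor Socs3 were lower at an unadjusted p under 0.05, 3 of 28 beside 4.60% of all tested genes, and 0 of 28 were higher, beside 1.26%. Jak3, which binds the common gamma chain, read 5.51 and 6.75 CPM in 27pepL, against 29.8 and 6.42 in IL-27. IL-27 replicate 2 lay between the 27pepL libraries, and IL-27 replicate 1 alone was above both. For Csf2rb2, IL-27 replicate 2, at 3.51 CPM, was below both 27pepL libraries, at 4.45 and 5.09. Socs3 differed from these: it read 36.9 and 44.5 CPM in 27pepL, against 82.4 and 51.2 in IL-27, without overlap. Among the 28, 4 were lower without overlap, Socs3 included, beside 13.6% of all tested genes, and 0 were higher, beside 10.9%. The median log2 fold change of the 28 genes was -0.73 in this comparison and 0.79 in IL-27 against pMCS. Both medians include IL-27 replicate 1 and are not given without it. That library was the highest of the 12 for most of the 28, beside 23.7% of all tested genes.

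How the 10 genes varied together was described over the 11 libraries without IL-27 replicate 1, as the Pearson correlation of log2 CPM. These libraries share the 6 group labels, and the values describe them only. Il2rb, Il2rg and Il10ra formed the closest trio, with 0.91 between each pair, and Il4ra joined them at 0.81 to 0.86. Il15ra and Csf2 had low or negative values with most of the others, and their own correlation was -0.44. With all 12 libraries the median correlation of each gene with the other 9 was 0.67 to 0.85, except for Csf2, at 0.05.

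**Figure D5:**
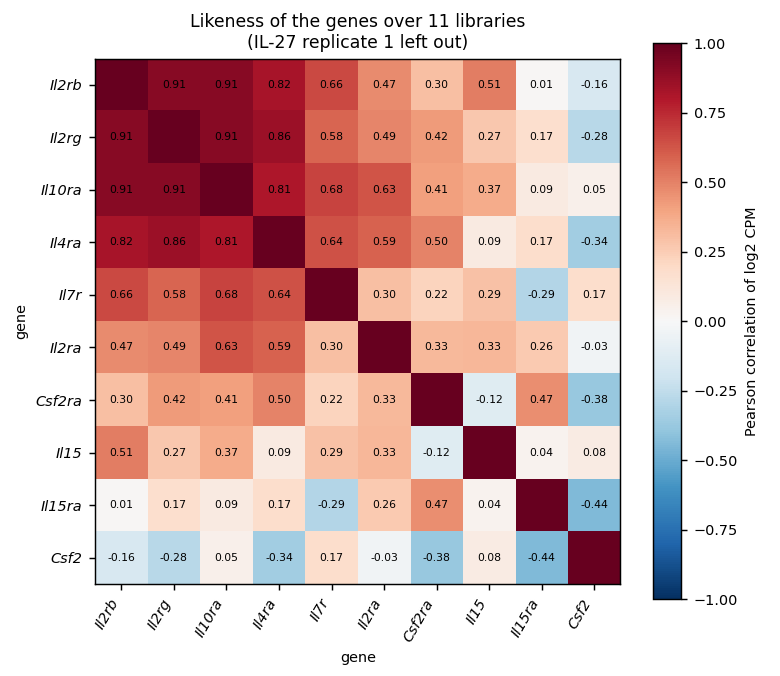
Pearson correlation of log2 CPM between each pair of the 10 genes over 11 libraries, IL-27 replicate 1 left out, from blue (-1) to red (1). Il2rb, Il2rg, Il10ra and Il4ra form a block of values from 0.81 to 0.91, and Csf2 is between -0.44 and 0.17 with the other 9 genes.

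The correlation with the mean pan-leukocyte marker level over the same 11 libraries was 0.76 for Il4ra, 0.63 for Il2rg, 0.56 for Il10ra, 0.54 for Il2ra and 0.51 for Il2rb. It was 0.37 for Il7r and 0.16 for Csf2ra, and -0.09, -0.10 and -0.17 for Il15ra, Csf2 and Il15. These values share libraries and depth and are given as a description.

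Among 11477 genes with an average log2 CPM of at least 1, the 3 nearest to each gene over the 12 libraries were named. Nearest to Il2rg were the interferon-induced GTPase Irgm1 (0.98 over 12 libraries, 0.95 without IL-27 replicate 1), Nrros (0.98 and 0.94) and Rassf4 (0.98 and 0.93). Nearest to Il2rb were the Fc receptor Fcgr1 (0.98 and 0.94), Phf11b and the class Ib histocompatibility gene H2-Q7, and nearest to Il10ra were Unc93b1, which carries toll-like receptors to endosomes (0.99 and 0.97), Arhgap9 and the lectin Clec4a3. Il2ra had Slc28a2, the T cell receptor constant gene Trbc2 (0.95 and 0.88) and Dennd1c, Il7r had the complement receptor C3ar1 (0.97 and 0.90), Itm2b and Dse, and Il4ra had Stard8, Thy1 and Phf11b. Csf2ra had Nuak2, Gltp and Spns2, Il15ra had Cavin2, Pyroxd2 and Ms4a14, and Il15 had Il18, Zfp119a and Gimap8. Csf2 again stood alone, with the neutrophil chemokine Cxcl2 (0.84 and 0.83), the hypoxia-induced gene Bnip3 (0.80 and 0.86) and Dram2. Il18, the endogenous gene of the cytokine given as protein, read 9.15 CPM in IL-27 replicate 1 and 1.39 to 3.62 in the other 11 libraries.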

How the data were processed

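The deposited table holds raw gene counts for 12 libraries of tumor RNA, and all 12 columns were used. The authors made TruSeq libraries, stranded and poly(A)-selected (the labels call the RNA total RNA), trimmed reads with Cutadapt and perl programs, and used FastQC 0.11.3, HISAT2, StringTie, gffcompare and edgeR. Which build, which annotation release and which step made counts of StringTie output is not given in the sources used here. All 55450 identifiers matched GENCODE M21 (GRCm38), which gave names, positions and exon lengths.

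Analysis used edgeR 4.0.16 under R 4.3.3. The filterByExpr filter kept 20417 genes, TMM set the scaling, and 1 quasi-likelihood model with a term per group covered all libraries. The Benjamini-Hochberg adjustment ran over the 20417 genes of each comparison, and the study's own thresholds served for a further count. A standard error is the size of the log2 fold change divided by the root of the F statistic. The model was tested on simulated data. The 10 genes, the 33 partners and the marker lists were chosen with earlier results of these data known. The text names the 10 genes, partners that passed a threshold or illustrate a level, and the 3 genes nearest to each. The partners, markers and Il2 given with values for their level, and Il18 among the nearest genes, were singled out after their values were seen. Some markers of the epithelial list are not reported here.

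Alternatives were RLE scaling, all genes without the filter, a fit to the compared groups only, a replicate block, a leukocyte marker covariate, the exact test, DESeq2 1.42.0, and leaving out each library, where the lone library of a group is assumed to vary like the others.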

Additional observations from a re-analysis of the deposited data

How the results depend on the processing

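With 2 libraries a group, counts of genes past a threshold moved easily. The cause of each change was not tested, except that leaving out a library removes its own value.

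With no filter on low counts, genes past an adjusted p of 0.05 in edgeR numbered 5 in IL-27 against pMCS, 3 in 27pepL against IL-27, 2 in 27→18 against IL-27 and 6 for any difference among the groups, against 0 in each with the filter. Over all 31054 genes of that fit the shares were 2.63%, 3.15%, 2.38% and 6.10%, against 0.00%, 0.245%, 0.245% and 0.269% of 20417 genes with the filter. At the unadjusted threshold this gave 2 in 27→18 against pMCS, 8 in 27pepL against IL-27, 5 in 27→18 against IL-27, 4 for IL-18 after IL-27 and 7 for any difference. Without the filter 1.72% of 31054 genes were higher in 27→18 against pMCS at an unadjusted p under 0.05 in edgeR. Such calls rose over all genes as well: in IL-27 against pMCS 5.84% were higher, beside 3.64% with the filter. DESeq2 gave 1 gene past an adjusted p of 0.05 in 27pepL against IL-27, beside 1.65% of all genes, and unadjusted counts of 5 there, 2 in 27→18 against IL-27, 1 for IL-18 after IL-27 and 4 for any difference. The exact test gave 3 in 27pepL against IL-27 and 1 in 27→18 against IL-27, and RLE scaling gave 1 in 27→18 against IL-27. The compared groups alone gave 0 in IL-27 against pMCS.

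With the replicate block the unadjusted count was 2 in IL-27 against pMCS and 0 for any difference. In IL-27 against pMCS 2.04% of all tested genes were then higher at an unadjusted p under 0.05 in edgeR. The numbers did not pair the libraries across all groups: the deviations of same-numbered libraries correlated at -0.282 to 0.343 over 15 pairs, with 6 over 0.1. The values were not without pattern. They were 0.206 to 0.343 among 27pepL, 27pepL→18 and pMCS, and 0.251 between IL-27 and 27→18. Between the former groups and the latter they were all negative, from -0.282 to -0.107. What lies behind this pattern was not tested.

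With the leukocyte covariate the unadjusted count was 0 in IL-27 against pMCS, 0 in 27pepL against IL-27 and 0 for any difference. Of all tested genes, 3.36%, 4.25% and 3.71% then had an unadjusted p under 0.05 in edgeR. The count was 2 in 27pepL→18 against pMCS, both lower, beside 4.78% of all tested genes lower. It was 3 in 27→18 against IL-27, all higher, beside 2.42% higher. For IL-18 after IL-27 it was 2, both higher, beside 2.94% higher. In IL-27 against pMCS the log2 fold change became -0.52 for Il2ra, -1.57 for Il2rb, -0.76 for Il2rg, -0.30 for Il7r, -0.63 for Il4ra, -0.79 for Il15ra, -1.07 for Il15 and -0.40 for Il10ra. In 27pepL→18 against pMCS it became -0.44 for Il2rg and -0.27 for Il10ra. In 27pepL against IL-27 it became 1.55 for Il2rb, and in 27→18 against IL-27 it became 0.32 for Il7r and 2.06 for Il2rb.

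Leaving out each library in turn gave adjusted counts of 0 to 4 in IL-27 against pMCS, 0 to 3 in 27pepL against IL-27 and 0 to 1 for any difference. Unadjusted counts were 0 to 9 in IL-27 against pMCS, 27pepL against IL-27, 27→18 against IL-27 and any difference, 0 to 1 in 27→18 and in 27pepL against pMCS, and 0 to 6 for IL-18 after IL-27. In IL-27 against pMCS the log2 fold change ranged from -0.16 to 3.43 for Il2ra, -1.47 to 4.13 for Il2rb, -0.61 to 3.19 for Il2rg, -0.20 to 4.49 for Il7r, -0.46 to 1.94 for Il4ra, -0.62 to 1.59 for Il15ra, -1.04 to 1.71 for Il15 and -0.27 to 3.10 for Il10ra. For Il2rb it ranged from -3.67 to 1.86 in 27pepL against IL-27 and from -3.02 to 2.50 in 27→18 against IL-27, for Il7r from -3.63 to 0.62 in 27→18 against IL-27, and for Csf2 from -0.075 to 0.90 in IL-18 against pMCS.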

Other observations

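Socs1, an inhibitor of cytokine receptor signaling, was almost absent from 3 libraries. It read 8.48 and 5.73 CPM in IL-18, 15.7 and 0.111 in IL-27, 10.05 and 10.1 in 27→18, 0.0868 and 5.22 in 27pepL, and 0.0780 and 5.40 in 27pepL→18, against 18.3 and 8.88 CPM in the pMCS libraries. The low values are 6, 6 and 4 counts.

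Csf2rb, the beta chain of the GM-CSF receptor, was low in the same 3 libraries and in pMCS replicate 1. It read 2.37 and 5.84 CPM in IL-18, 25.5 and 0.483 in IL-27, 5.34 and 1.77 in 27→18, 0.231 and 3.57 in 27pepL, and 0.0780 and 3.45 in 27pepL→18, against 0.307 and 2.26 CPM in the pMCS libraries. Csf2ra, the chain it pairs with, was between 4.02 and 8.37 CPM in those 4 libraries. Reads of Csf2rb may be divided with its near-identical copy Csf2rb2 in an uncertain way, so these values are uncertain.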
